A study of Mus musculus with 8 samples.

Results

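Matrix metalloproteinases (MMPs) were followed gene by gene in RNAseq of mouse peritoneal mesothelial cells (MCs), the cells that line the abdominal cavity. The 10 genes Mmp2, Mmp3, Mmp9, Mmp10, Mmp11, Mmp12, Mmp13, Mmp14, Mmp19 and Mmp23 were taken by symbol from the table of 13687 genes, and 10 of 10 had a row and passed the filter on low values (2 or more libraries reaching a value of 1). MCs were obtained by trypsin digestion of parietal peritoneum from CAV1-deficient mice of the B6.Cg-CAV1tm1mls/J line and from WT littermates, and the age of the animals is not given in the sources used here. CAV1 (caveolin-1) is a structural protein of caveolae, small pits of the plasma membrane that flatten when a cell is stretched. Animals 1 and 2 were CAV1−/− and animals 3 and 4 were WT, and each gave 1 culture kept static and 1 culture exposed to mechanical stretching for 24 h, so each of the 4 groups (WT static, WT stretched, CAV1−/− static, CAV1−/− stretched) holds 2 cultures. All groups were grown to confluence before that period, and the deletion is present in every cell of the CAV1−/− animals, leukocytes included. The comparisons address how stretching, the loss of CAV1 and their combination alter gene expression in MCs that can shift toward a mesenchymal state.

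MMPs are secreted or membrane-bound zinc proteases that cut proteins of the extracellular matrix. Most are made as inactive precursors, are activated by other proteases and are blocked by tissue inhibitors of metalloproteinases (TIMPs). In the peritoneum they take part in the breakdown of the submesothelial matrix and in the passage of cells through it, and several of them are also products of macrophages and other leukocytes that live in the peritoneal cavity. Mmp2 and Mmp9 encode the gelatinases, which cut denatured collagen and basement membrane collagen. Mmp13 encodes the main interstitial collagenase of rodents, Mmp3 and Mmp10 the stromelysins, and Mmp12 macrophage metalloelastase. Mmp14 encodes a membrane-anchored protease that activates the Mmp2 precursor at the cell surface. Mmp11, Mmp19 and Mmp23 encode more distant members of the family, of which the Mmp11 and Mmp23 proteins are activated by furin-type proteases.

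A group of 4 of these genes lies within a cluster on chromosome 9 of GRCm38 (positions from the GENCODE M21 annotation), all on the forward strand: Mmp13 from 7272514 to 7283331, Mmp12 from 7344381 to 7369499, Mmp3 from 7445822 to 7455975 and Mmp10 from 7502352 to 7510240. Mmp9 lies on chromosome 2 (164940780 to 164955850), Mmp23 on chromosome 4 (155650655 to 155653384), Mmp2 on chromosome 8 (92827291 to 92853420), Mmp11 on chromosome 10 (75923222 to 75936496), Mmp19 also on chromosome 10 (128790910 to 128800824) and Mmp14 on chromosome 14 (54431612 to 54445364). The annotation gives all 10 as protein-coding genes.

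The 4 genes of the chromosome 9 cluster are shown by the 100 bases before their start, because these held a motif that the other members with a sequence lacked. RefSeq promoter windows (GRCm38.p6, 250 bases before to 50 bases after a start) were found for 7 of the 10 members, all but Mmp2, Mmp9 and Mmp19. The 7-base motif TGAGTCA, bound by AP-1 factors of the Fos and Jun families, was searched on both strands, so that it may also read TGACTCA. It was found in windows of 4 of the 7 members and in 5.20% of all 32851 windows, which belong to 27025 genes. Mmp12 and Mmp23 had 2 windows each, so genes and windows are not the same unit. Among other MMP genes on chromosome 9, a window of Mmp1a, Mmp1b and Mmp7 also held it, and those of Mmp8, Mmp20 and Mmp27 did not. The motif is in capitals below and began 35 bases before the start in Mmp13, 44 before the second of 2 listed starts in Mmp12, 46 in Mmp3 and 63 in Mmp10. Each sequence runs 5′ to 3′ on the forward strand.
Mmp13, chr9:7272414-7272513: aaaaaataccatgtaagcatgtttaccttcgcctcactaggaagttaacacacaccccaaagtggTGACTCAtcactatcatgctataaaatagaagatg
Mmp12, chr9:7347274-7347373: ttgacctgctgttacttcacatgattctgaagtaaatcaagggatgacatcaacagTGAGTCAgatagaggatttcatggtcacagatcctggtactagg
Mmp3, chr9:7445722-7445821: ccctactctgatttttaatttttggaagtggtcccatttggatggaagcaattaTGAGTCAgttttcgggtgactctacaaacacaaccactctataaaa
Mmp10, chr9:7502242-7502341: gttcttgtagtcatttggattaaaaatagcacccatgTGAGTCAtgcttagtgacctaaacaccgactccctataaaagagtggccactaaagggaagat
No match of these letters was found in the windows of Mmp11, Mmp14, Mmp23 or the first listed start of Mmp12.

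Values are TMM-normalized CPM, the reads of a gene scaled to a library total adjusted by the authors with the TMM method of edgeR, and are called CPM from here on. The libraries held 9777738 to 21203938 reads, and 3 reads, taken as the smallest detectable amount, correspond to 0.146 to 0.308 TMM-normalized CPM (counting error only). Cav1, the targeted gene, was at 247 to 764 in the WT cultures and at 12.8 to 34.5 in the CAV1−/− cultures. The cultures differed in cell markers that were listed for this purpose. All 18 leukocyte markers with a row (of 19 listed) were higher in both cultures of animal 1 than in each of the other 6 cultures, and their summed level was 5881 static and 5640 stretched in animal 1, 381 and 424 in animal 2, 518 and 533 in animal 3 and 88.1 and 95.9 in animal 4. Among them Ptprc (CD45) was at 37.6 and 30.8 in animal 1, 2.88 and 2.96 in animal 2, and 0.97 to 4.27 in the WT cultures. The 12 mesothelial markers with a row (of 13 listed) summed to 924 to 1177 in the 4 CAV1−/− cultures and to 3115 to 4115 in the 4 WT cultures. The group mean of log2(value + 1) was lower in CAV1−/− cultures for all 12, static and stretched. Single cultures did not all follow: Wt1 was at 138 and 118 in animal 2 against 94.9 to 133 in WT cultures. Krt19 was at 49.0 and 69.4 in animal 1 against 21.7 to 65.9. Ratios of animal 1 to animal 2 ran from 0.102 for Upk3b to 16.8 for Krt19. The 7 fibroblast markers summed to 423 and 472 in animal 1, 1961 and 1832 in animal 2, 937 and 570 in animal 3 and 2414 and 2675 in animal 4. In such bulk samples fewer cells of a type and less RNA per cell cannot be told apart.

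Per kb of exon, Mmp14 and Mmp2 had the highest mean levels of the 10 genes in each of the 4 groups, but not in each animal. To compare genes, values were divided by the length of the exons of each gene in kb. The rank of Mmp12 depends on this length, which is 7237 bases for Mmp12 and 3371 for Mmp2. In CPM not divided by length, Mmp12 had a mean of 890 against 474 for Mmp2 in static CAV1−/− MCs. With stretch these means were 573 and 569. Over all 8 cultures Mmp14 had a mean of 183 CPM per kb and Mmp2 of 135, followed by Mmp12 (54.8), Mmp9 (19.4), Mmp23 (17.8), Mmp19 (16.0), Mmp13 (15.1), Mmp11 (9.01), Mmp3 (8.45) and Mmp10 (1.76). In animal 1 Mmp12 was above Mmp2, with 223 against 71.6 CPM per kb static and 133 against 92.9 stretched, and in the static culture it was also above Mmp14. Over the 8 cultures the ranges of every pair of neighbors in this order overlapped. In static WT MCs the order per kb was Mmp14 (204 ± 20.3, SD, n = 2), Mmp2 (102 ± 39.7), Mmp23 (16.9 ± 2.87), Mmp19 (12.0 ± 1.86), Mmp11 (11.7 ± 7.48), Mmp12 (7.72 ± 5.74), Mmp13 (3.30 ± 1.29), Mmp3 (2.99 ± 0.61), Mmp10 (0.753 ± 0.261) and Mmp9 (0.693 ± 0.110). Here the cultures of Mmp14 and Mmp2, of Mmp2 and Mmp23, of Mmp23 and Mmp19 and of Mmp3 and Mmp10 did not overlap, whereas the other neighbors did. In static CAV1−/− MCs Mmp12 (123 ± 142), Mmp13 (33.1 ± 19.9) and Mmp9 (27.0 ± 10.1) stood in places 3, 4 and 5, behind Mmp14 (157 ± 1.85) and Mmp2 (141 ± 97.7), and in that group Mmp11 and Mmp10 were the only neighbors whose cultures did not overlap.

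**Figure D1:**
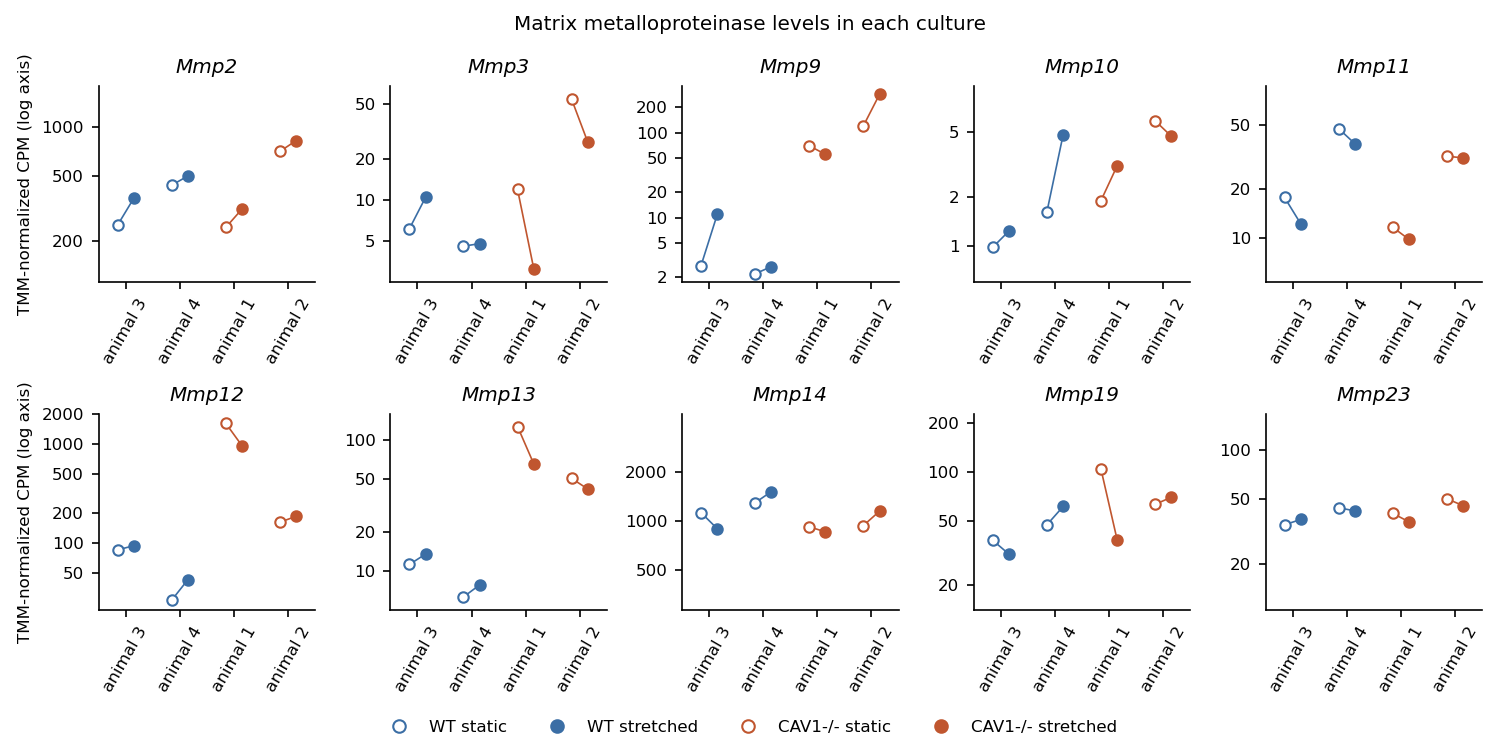
CPM (log axes, which differ in position between panels) of the 10 MMP genes in WT animals 3 and 4 and CAV1−/− animals 1 and 2. Each point is 1 culture, open for static and filled for stretched, and a line joins the cultures of an animal. Mmp9, Mmp12 and Mmp13 are higher in all 4 CAV1−/− cultures than in all 4 WT cultures, and Mmp12 reaches 1617 in animal 1.

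Between the genotypes, the genes that stood apart were Mmp9, Mmp12 and Mmp13. Each was higher in all 4 CAV1−/− cultures than in all 4 WT cultures, a pattern that 3.86% of all 13665 genes tested showed. No member was lower in all 4 CAV1−/− cultures, a pattern of 5.88% of all genes. On the threshold of the main test (limma on log2(value + 1), Benjamini-Hochberg adjusted p under 0.05 over all genes), 0 of the 10 members were called either without stretch, where 0.0732% of all genes were called, or with stretch, where 0.0585% were. With an unadjusted p under 0.05, limma listed Mmp9, Mmp12 and Mmp13 without stretch (8.17% of all genes) and Mmp9 and Mmp13 with stretch (6.26% of all genes). On the reads recovered from the values, edgeR's quasi-likelihood test called 0 members in both comparisons (0.0146% and 0.0439% of all genes), and DESeq2 called Mmp9 and Mmp13 in both (2.26% and 1.73% of all genes). With 2 cultures per group, the smallest two-sided p of an exact permutation test of 1 gene is 0.333.

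Mmp9, the gelatinase gene typical of activated leukocytes and of cells exposed to inflammatory cytokines, was at 2.73 and 2.18 CPM in the static WT cultures of animals 3 and 4. It was at 70.4 and 121 in the static CAV1−/− cultures of animals 1 and 2. The stretched cultures had 10.9 and 2.65 in WT MCs and 55.6 and 285 in CAV1−/− MCs. The lowest CAV1−/− culture was thus above the highest WT culture under both conditions. The highest level was in animal 2, and the mean of animal 1 was 13.6 times the WT mean. The part of leukocytes in the Mmp9 levels was not tested. The mean was 95.5 ± 35.6 in CAV1−/− against 2.45 ± 0.388 in WT MCs without stretch and 170 ± 162 against 6.80 ± 5.87 with stretch (SD, n = 2). The log2 fold change on the log2(value + 1) scale was 4.76 without stretch (SE 0.87, limma adjusted p = 0.143) and 4.27 with stretch (SE 0.87, limma adjusted p = 0.299). DESeq2 gave adjusted p-values of 7.48e-08 and 4.16e-06. Without animal 1 the log2 fold changes were 5.14 and 5.44. The WT level rested on few reads, 39 and 27 in static and 222 and 43 in stretched cultures, against 854 to 5212 in the CAV1−/− cultures.

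Mmp12, the macrophage metalloelastase gene, was carried by the leukocyte-rich cultures of animal 1. Its static values were 85.2 and 26.5 CPM in WT animals 3 and 4, 1617 in animal 1 and 162 in animal 2. Its stretched values were 94.0 and 42.7 in animals 3 and 4, 960 in animal 1 and 186 in animal 2. The lower culture of animal 1 had 5.16 times the highest of the other 6 cultures, and Mmp12 was the only member for which this ratio was at least 2, which held for 2.85% of all genes. Animal 2 was above both WT animals as well, with 1.73 times the highest WT culture in its lower culture. The log2 fold change between genotypes was 3.40 without stretch (SE 1.30, limma adjusted p = 0.563) and 2.72 with stretch (SE 1.30, limma adjusted p = 0.875), and without animal 1 it was 1.75 and 1.54. Within the WT cultures Mmp12 was also higher in animal 3 than in animal 4, static and stretched. The same held for Mmp3, Mmp9 and Mmp13, and the other members were lower in animal 3. In static culture 17 of the 18 leukocyte markers had this order, as had all 3 muscle markers, 8 of the 12 mesothelial markers and 0 of the 7 fibroblast markers.

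Mmp13, the collagenase gene, was at 11.3 and 6.38 CPM in the static cultures of animals 3 and 4, at 126 in that of animal 1 and at 50.8 in that of animal 2. On stretch it was at 13.5 and 7.89 in WT MCs, 65.5 in animal 1 and 42.1 in animal 2. Both cultures of animal 1 were above each of the other 6, the lower by 1.29 times, and both cultures of animal 2 were above every WT culture, the lower by 3.12 times. The mean was 88.4 ± 53.1 in CAV1−/− against 8.82 ± 3.45 in WT MCs without stretch and 53.8 ± 16.5 against 10.7 ± 3.98 with stretch (SD, n = 2). The log2 fold change was 3.09 without stretch (SE 0.52, limma adjusted p = 0.122) and 2.24 with stretch (SE 0.52, limma adjusted p = 0.352), while DESeq2 gave adjusted p-values of 5.64e-07 and 0.00327. Without animal 1 the log2 fold changes were 2.44 and 1.93.

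**Figure D2:**
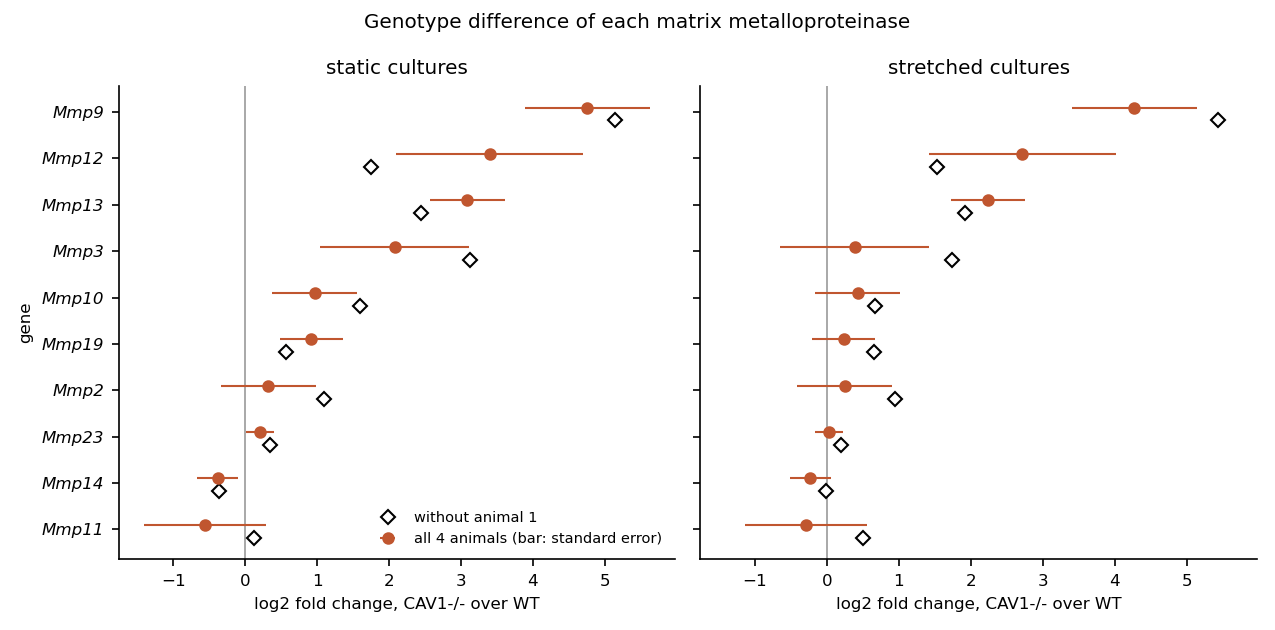
Log2 fold change between CAV1−/− and WT MCs (CAV1−/− over WT, log2(value + 1) scale) of each MMP gene, in static (left) and stretched cultures (right). Filled points are the fit over all 4 animals with its standard error as a bar, and open diamonds are the fit without animal 1. Mmp9 is the highest in both panels, Mmp12 moves from 3.40 to 1.75 without animal 1 in static culture, and Mmp11 changes sign.

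Both cultures of animal 1 lay above each of the other 6 for Mmp12 and Mmp13, a rule that 12.2% of all genes met and the other 8 members did not. Mmp12 met it by a wide margin. Mmp13 met it by 1.29 times, and its level in animal 2 was also 4.76 times the WT mean, so its genotype difference did not rest on animal 1 alone. The corresponding rule for animal 2, met by 9.89% of all genes, held for Mmp2, Mmp3, Mmp9 and Mmp23. Compared with the 4 WT cultures alone, both cultures of animal 2 were higher for 7 members, Mmp2, Mmp3, Mmp9, Mmp12, Mmp13, Mmp19 and Mmp23, against 14.5% of all genes. They were at least 2 times each WT culture for Mmp3, Mmp9 and Mmp13, against 1.26% of all genes.

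The ratio between the CAV1−/− animals separated the members further. The mean of animal 1 was 3.01 to 17.5 times that of animal 2 for the 18 leukocyte markers, with a median of 11.5. It was 7.40 times for Mmp12, 2.06 times for Mmp13, 1.07 times for Mmp19, 0.852 for Mmp14, 0.805 for Mmp23, 0.473 for Mmp10, 0.362 for Mmp2, 0.341 for Mmp11, 0.310 for Mmp9 and 0.187 for Mmp3. Mmp12 was therefore the only member with a ratio inside the range of the leukocyte markers. The 3 muscle markers were also highest in animal 1 in sum (1204 static and 954 stretched, against 161 to 638 in the other 6 cultures), and their ratios of animal 1 to animal 2, from 1.87 for Des to 9.09 for Myh11, enclosed those of Mmp12 and Mmp13. In animal 2 the summed leukocyte level (381 and 424) lay between those of the WT animals, and the median leukocyte marker had 1.31 times its WT mean, with a range of 0.481 to 2.66. Lyz2 alone gave 201 and 231 of these sums. It gave 302 and 345 of the 518 and 533 in animal 3 and 27.5 and 29.6 of the 88.1 and 95.9 in animal 4. The order of the sums therefore depends strongly on Lyz2. For Itgam, Itgb2, Fcer1g, Cd53 and Fcgr3 both cultures of animal 2 were above every WT culture, and for the other leukocyte markers they were not. In the same animal Mmp9 had 43.9 times its WT mean, Mmp3 6.20, Mmp13 4.76 and Mmp12 2.80 times. The part of leukocytes and of muscle cells in the levels of animal 1 was not tested.

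**Figure D3:**
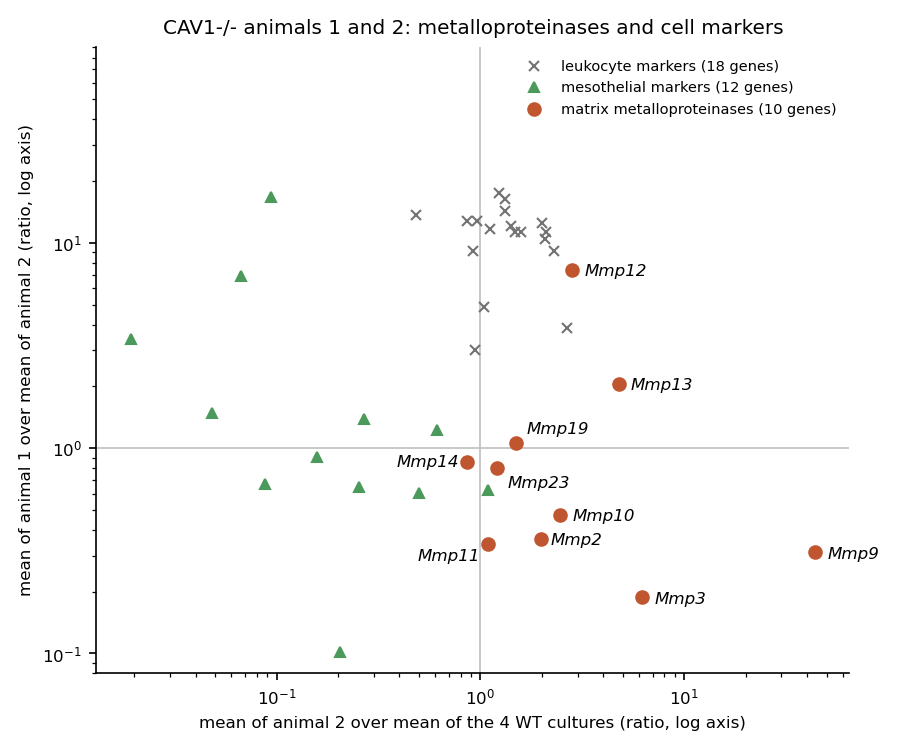
Ratio of the mean of animal 1 to the mean of animal 2 (vertical, log axis) against the ratio of the mean of animal 2 to the mean of the 4 WT cultures (horizontal, log axis), for the 10 MMP genes (circles), 18 leukocyte markers (crosses) and 12 mesothelial markers (triangles). Mmp12 lies closest to the leukocyte markers, and Mmp9 lies far to the right, at 43.9 times the WT mean in animal 2, and below 1 on the vertical axis.

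Mmp3 and Mmp10 encode stromelysins, which cut proteoglycans and activate other MMP precursors. Mmp3 was at 6.16 and 4.60 CPM in static WT cultures (animals 3 and 4), at 11.9 in animal 1 and at 54.3 in animal 2. On stretch it was at 10.5 and 4.80 in WT cultures, 3.15 in animal 1 and 26.3 in animal 2. The static genotype groups did not overlap, but the stretched ones did, because animal 1 was below both WT cultures. The log2 fold change was 2.08 without stretch (SE 1.03, limma adjusted p = 0.709) and 0.39 with stretch (SE 1.03, limma adjusted p = 1.00), and 3.13 and 1.74 without animal 1. Mmp10, the member with the lowest level per kb, was at 0.979 and 1.61 in static WT cultures, 1.90 and 5.86 in static CAV1−/− cultures, 1.23 and 4.80 in stretched WT cultures and 3.11 and 4.71 in stretched CAV1−/− cultures. These values rested on 14 to 86 reads, and the log2 fold changes were 0.97 without stretch (SE 0.59, limma adjusted p = 0.792) and 0.43 with stretch.

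Mmp2 and Mmp14, the protease pair of the cell surface, were expressed at high levels in every culture. Mmp2 was at 250 and 439 CPM in static WT cultures and 241 and 707 in static CAV1−/− cultures, and at 365 and 500 in stretched WT cultures and 313 and 825 in stretched CAV1−/− cultures. The groups of both genotypes overlapped under both conditions, with animal 2 at the top and animals 1 and 3 at the bottom. The log2 fold change was 0.32 without and 0.25 with stretch (SE 0.66), and 1.09 and 0.95 without animal 1. The low and high animals of Mmp2 were also those with low and high sums of the fibroblast markers within each genotype, and the part of fibroblasts in it was not tested. Mmp14 was at 1131 and 1303 in static WT, 927 and 942 in static CAV1−/−, 901 and 1525 in stretched WT and 862 and 1157 in stretched CAV1−/− cultures. Without stretch both CAV1−/− cultures were below both WT cultures, a log2 fold change of −0.38 (SE 0.28, limma adjusted p = 0.838), whereas with stretch the groups overlapped (−0.23).

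Mmp11, known as stromelysin-3 and typical of stromal fibroblasts, differed more between the animals of a genotype than between the genotype means. It was at 17.8 and 47.2 CPM in static WT cultures, 11.7 and 32.0 in static CAV1−/− cultures, 12.3 and 38.1 in stretched WT cultures and 9.85 and 31.2 in stretched CAV1−/− cultures. Animals 2 and 4, whose fibroblast marker sums were the highest, had the high values in every condition. These 2 animals also share a replicate number, as do animals 1 and 3. Within each replicate number and condition, the CAV1−/− culture was below the WT culture. With that number as a block, limma gave Mmp11 an adjusted p of 0.0894 without and 0.379 with stretch. Without a block, the log2 fold changes of Mmp11 of −0.56 without and −0.29 with stretch (SE 0.85) turned to 0.13 and 0.50 without animal 1. That fit leaves animal 3 without its same-numbered CAV1−/− animal. Mmp19, a basement membrane protease gene, was at 37.8 and 47.2 in static WT cultures, 103 and 63.0 in static CAV1−/− cultures, 31.1 and 61.1 in stretched WT cultures and 37.9 and 69.6 in stretched CAV1−/− cultures. The static genotype groups did not overlap (log2 fold change 0.92, SE 0.44, limma adjusted p = 0.693) and the stretched groups did (0.23). Mmp23 was the steadiest member, with 34.9 and 44.4 in static WT, 41.0 and 50.5 in static CAV1−/−, 37.6 and 42.5 in stretched WT and 36.4 and 45.7 in stretched CAV1−/− cultures, and log2 fold changes of 0.20 and 0.03 (SE 0.19).

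As a group, 8 of the 10 members had a positive log2 fold change in CAV1−/− MCs both without stretch (median 0.94, against −0.01 over all genes) and with stretch (median 0.32, against 0.00). Of all 13665 genes tested, 6528 were positive without and 6831 with stretch. The static cultures of both CAV1−/− animals lay above both static WT cultures for 6 members (Mmp3, Mmp9, Mmp10, Mmp12, Mmp13 and Mmp19), against 16.1% of all genes, and below them for Mmp14, against 20.8%. The stretched cultures lay above for 3 members (Mmp9, Mmp12 and Mmp13), against 14.6% of all genes, and below for 0 members, against 15.9%.

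No member passed the threshold for stretching. By limma 0 of the 10 members were called in WT MCs, in CAV1−/− MCs, on average over both genotypes, or in the genotype by stretch interaction, and 0% of all genes were called in each of these 4 comparisons. With an unadjusted p under 0.05, limma listed 0 members in each, against 2.27% of all genes in WT MCs, 2.09% in CAV1−/− MCs, 4.73% for the average and 0.483% for the interaction. This fit holds no block, so its error includes the spread between animals. With the animal as a block, limma's unadjusted p was under 0.05 for 2 members in WT MCs (1979 of 13665 genes) and 3 in CAV1−/− MCs (1824 genes). It was under 0.05 for 3 members on average (2872 genes) and 2 in the interaction (581 genes), and 0 members were called. All 4 stretched libraries were deeper than all 4 static ones, so depth and stretching cannot be told apart.

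Mmp2 was the only member that was higher on stretch in all 4 animals. Its difference in log2(value + 1) between the stretched and static cultures of an animal was 0.37 in animal 1, 0.22 in animal 2, 0.55 in animal 3 and 0.19 in animal 4. The average log2 fold change was 0.33 (SE 0.47, limma adjusted p = 0.999), and 14.5% of all genes were higher in all 4 animals. Mmp11 was the only member that was lower on stretch in all 4 animals, by −0.23, −0.03, −0.50 and −0.30 in animals 1 to 4, an average of −0.27 (SE 0.60, limma adjusted p = 0.999), against 16.9% of all genes. For both genes the static cultures of the animals of a genotype lay further apart than the static and stretched cultures of any animal. With the animal as a block, limma gave the averages adjusted p-values of 0.0930 for Mmp2 and 0.163 for Mmp11.

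In WT MCs 6 members were higher on stretch in both animals (Mmp2, Mmp3, Mmp9, Mmp10, Mmp12 and Mmp13), against 28.7% of all genes, and Mmp11 was lower in both, against 33.9%. In CAV1−/− MCs Mmp2 was higher on stretch in both animals, against 30.0% of all genes, and Mmp3, Mmp11, Mmp13 and Mmp23 were lower in both, against 30.9%. The median log2 fold change of the members was 0.31 in WT MCs, against −0.02 over all genes, and −0.14 in CAV1−/− MCs, against 0.00.

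Mmp3 and Mmp13 had stretch differences of opposite sign in the genotypes. The stretch difference of Mmp3 was 0.68 and 0.05 in WT animals 3 and 4 and −1.64 and −1.02 in CAV1−/− animals 1 and 2, with an interaction of −1.69 (SE 1.46, limma adjusted p = 1.00). That of Mmp13 was 0.24 and 0.27 in WT and −0.93 and −0.26 in CAV1−/− animals, with an interaction of −0.85 (SE 0.73, limma adjusted p = 1.00). Neither interaction passed the threshold. With the animal as a block, limma gave the interactions unadjusted p-values of 0.00142 for Mmp3 and 0.0107 for Mmp13, with an adjusted p of 0.947 for both. Mmp9 was at 2.73 static and 10.9 stretched in animal 3, 121 and 285 in animal 2, 2.18 and 2.65 in animal 4 and 70.4 and 55.6 in animal 1, so that its stretch difference varied from −0.33 to 1.68 between animals. Mmp12 and Mmp19 had their lowest stretch differences in animal 1, −0.75 and −1.42. Mmp10 had its highest in animal 4, 1.15. Mmp14 and Mmp23 stayed within −0.33 and 0.30 in every animal.

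**Figure D4:**
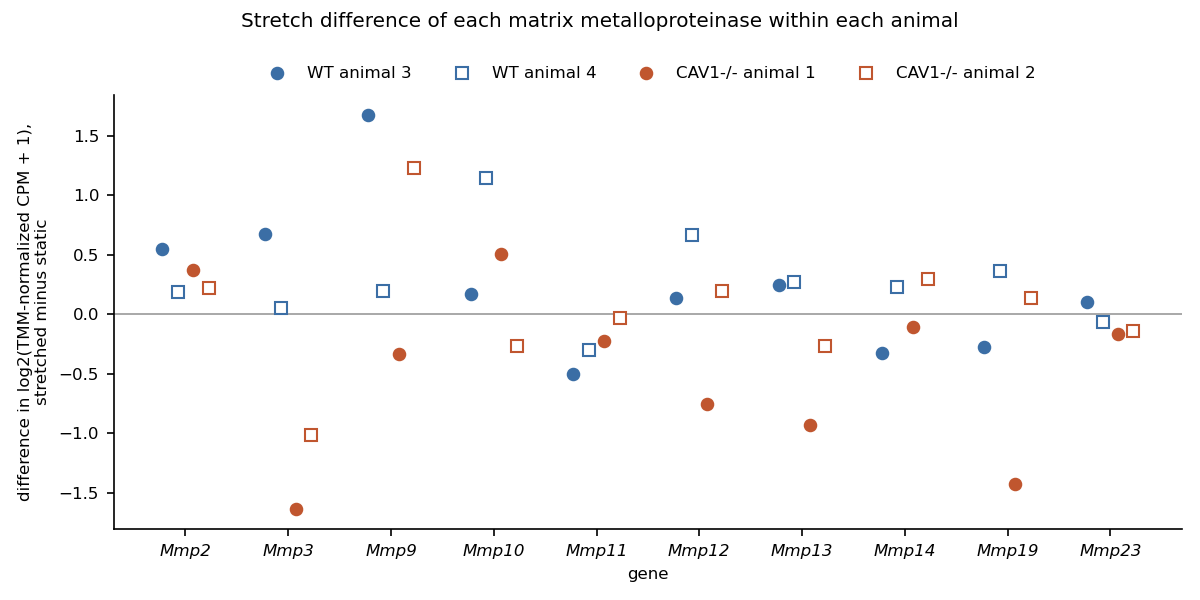
Difference in log2(TMM-normalized CPM + 1) between the stretched and the static culture of each animal, for each MMP gene. Circles are animals 3 (WT) and 1 (CAV1−/−), open squares animals 4 (WT) and 2 (CAV1−/−). Mmp2 lies above 0 in all 4 animals and Mmp11 below 0, while Mmp3 and Mmp13 lie above 0 in WT and below 0 in CAV1−/− animals.

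Of 13 other MMP genes listed, 5 had a row (Mmp8, Mmp15, Mmp16, Mmp17 and Mmp27), and 0 of the 5 passed the threshold of limma, without a block, in any comparison. Mmp8, the neutrophil collagenase gene and the neighbor of Mmp10 on chromosome 9 (7558456 to 7568485), was at 9.65 and 13.5 CPM in the static and stretched cultures of animal 3 and at 1.53 and 3.33 in those of animal 4. It was at 204 and 160 in animal 1 and at 14.5 and 17.7 in animal 2, a ratio of 11.3 between the CAV1−/− animals that is close to the leukocyte median. Its log2 fold change between genotypes was 3.44 without stretch (SE 1.59, limma adjusted p = 0.683) and 2.80 with stretch. Mmp27 had 0.93 and 0.80. The 5 genes had a median of 0.75 without and 0.30 with stretch, and 0 of 5 were higher on stretch in CAV1−/− MCs. On stretch the largest sizes were 0.61 for Mmp8 and −0.35 for Mmp17 in WT MCs and −0.49 for Mmp15 and −0.40 for Mmp17 in CAV1−/− MCs. The largest sizes were −0.38 for Mmp17 and 0.28 for Mmp8 on average over the genotypes and −0.79 for Mmp15 and −0.64 for Mmp8 in the interaction.

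Of 6 listed MMP inhibitors, 5 were tested (Timp1, Timp2, Timp3, Reck and Tfpi2), and 0 passed the threshold of limma. Timp1, an inhibitor with broad action, was at 361 and 617 CPM in static WT cultures and 803 and 1065 in static CAV1−/− cultures, a log2 fold change of 0.97 (SE 0.38, limma adjusted p = 0.579). Timp2, which binds Mmp14 and takes part in the activation of the Mmp2 precursor, was at 1056 and 1637 in static WT and 584 and 846 in static CAV1−/− cultures, a log2 fold change of −0.90 (SE 0.55, limma adjusted p = 0.792). With stretch the largest differences were −0.67 for Reck, a membrane-anchored inhibitor, and −0.59 for Timp2. The 5 inhibitors had a median of −0.31 without and −0.52 with stretch, 2 higher and 3 lower each time.

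Tfpi2, a secreted inhibitor of plasmin that also blocks several MMPs, was the inhibitor with the largest stretch difference. It was at 4.97 and 11.5 CPM in static and 22.3 and 22.5 in stretched WT cultures, and at 12.4 and 8.53 in static and 41.4 and 26.3 in stretched CAV1−/− cultures. It was higher on stretch in all 4 animals, by a log2 fold change of 1.44 in WT and 1.59 in CAV1−/− MCs and 1.52 on average (SE 0.28, limma adjusted p = 0.984). For the average, DESeq2 gave an adjusted p of 0.00534, and limma with the animal as a replicate block, which called 201 of 13665 genes, gave 0.0291. The next in size were 0.60 for Timp1 in WT MCs, −0.39 for Timp3 in CAV1−/− MCs and 0.33 for Timp1 on average, and in the interaction −0.55 for Timp1 and 0.31 for Timp2.

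Of 14 genes for the activation, docking and uptake of MMPs, 14 were tested and 0 passed the threshold of limma. Between the genotypes 9 were higher and 5 lower without stretch (median 0.17) and 10 and 4 with stretch (median 0.38). Itgb3, the integrin chain whose dimer with Itgav can dock Mmp2, had 1.49 without and 1.08 with stretch, and Pcsk6, a furin-type convertase, had −1.25 and −1.17. Itgb3 was the larger without stretch and Pcsk6 with stretch. On stretch Itgb3 was at 58.2 and 121 against 18.5 and 56.6 CPM in WT cultures and at 123 and 262 against 79.1 and 110 in CAV1−/− cultures, higher in all 4 animals. Its average log2 fold change was 1.14 (SE 0.45, limma adjusted p = 0.984), for which limma with the animal as a replicate block gave an adjusted p of 0.0291. The same block also brought Furin (0.53, limma adjusted p = 0.0466), Itgav (0.41, adjusted p = 0.0343) and Pcsk6 (−0.79, adjusted p = 0.0327) past the threshold on average. DESeq2, without a block, called none of these 4 genes, with adjusted p-values of 0.608 for Itgb3, 0.206 for Furin and 1.00 for Itgav and Pcsk6. Log2 fold changes were 1.35 for Itgb3 and −1.12 for Pcsk5 in WT MCs, 0.94 for Itgb3 and −0.75 for Pcsk6 in CAV1−/− MCs, and 1.03 for Pcsk5 and −0.48 for Thbs2 in the interaction.

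The 14 listed transcription factors of MMP genes include the AP-1 genes. Between the genotypes 9 were higher and 5 lower without stretch (median 0.11) and 11 and 3 with stretch (median 0.24), and 0 passed the threshold of limma in any comparison. Fos was at 22.9 and 33.8 CPM in static WT against 18.5 and 15.2 in static CAV1−/− cultures and at 14.0 and 25.7 against 10.2 and 10.7 in stretched ones, log2 fold changes of −0.70 and −0.80. Next came Nfkb1 with 0.42 without stretch and Runx2 with 0.52 with stretch. On stretch Fos had −0.53 in WT, −0.64 in CAV1−/− MCs and −0.58 on average, with Fosb at 0.47 in WT MCs and 0.40 on average and Runx2 at 0.46 in CAV1−/− MCs. The largest interactions were 0.51 for Jund and 0.32 for Runx2.

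The 7 listed cytokines that induce MMP genes were all higher in CAV1−/− MCs by their fitted log2 fold change, with medians of 1.14 without and 0.91 with stretch, and 0 of 7 passed the threshold of limma. Il1a, an alarm cytokine of epithelial and mesothelial cells, was at 1.19 and 0.807 CPM in static WT cultures and 36.5 and 47.9 in static CAV1−/− cultures, and at 4.88 and 0.431 in stretched WT and 24.6 and 70.9 in stretched CAV1−/− cultures. Its log2 fold changes were 4.43 (SE 0.75, limma adjusted p = 0.122) and 3.89 (SE 0.75, limma adjusted p = 0.249), and DESeq2 gave adjusted p-values of 3.34e-06 and 0.00105. Il6 was at 1.47 and 2.50 in static WT, 28.8 and 70.0 in static CAV1−/−, 5.47 and 2.77 in stretched WT and 8.98 and 83.7 in stretched CAV1−/− cultures, log2 fold changes of 3.97 and 2.56 (adjusted p = 0.000117 and 0.0138 from DESeq2, 0.295 and 0.753 from limma). As for Mmp9 and Mmp3, the mean of animal 2 was above that of animal 1, with ratios of animal 1 to animal 2 of 0.514 for Il1a and 0.246 for Il6. Il1b, Tnf and Osm reached at most 6.59 CPM in any culture. They had 37 to 80 reads in each culture of animal 1 and 0 to 7 reads in each of the other 6. Their ratios of animal 1 to animal 2 were 14.0, 7.96 and 23.6, which are uncertain because of these few reads in animal 2. Lif and Tgfb1 had ratios of 0.703 and 0.938. On stretch 0 of 7 were called, with 0.75 for Il6 and 0.54 for Il1a in WT MCs, −0.78 for Tnf and −0.66 for Il6 in CAV1−/− MCs, −0.50 for Tnf and 0.38 for Tgfb1 on average, and −1.41 for Il6 and −0.57 for Tnf in the interaction.

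Among 13 listed matrix substrates, Eln stood apart and 0 passed the threshold of limma. Eln, which encodes the substrate that gave Mmp12 its name, was at 86.8 and 114 CPM in static WT cultures and at 3.01 and 50.9 in stretched ones, and at 0.206 to 0.383 in the 4 CAV1−/− cultures, which is 2 to 7 reads. Its log2 fold change was −6.36 without stretch (SE 1.07, limma adjusted p = 0.122 and 8.55e-11 from DESeq2) and −3.43 with stretch (limma adjusted p = 0.585 and 9.46e-07 from DESeq2). Both CAV1−/− animals were thus near the limit of 3 reads, and a relation of Eln to Mmp12 was not tested. The other substrates had smaller differences between the genotypes, led by Vcan at 1.22 without stretch and Dcn, also one of the fibroblast markers, at −1.21 with stretch, and overall 5 were higher and 8 lower without stretch (median −0.34) and 7 and 6 with stretch (median 0.06). On stretch 12 of 13 had a negative log2 fold change in WT MCs (Eln −2.80, Col3a1 −0.94) and 5 of 13 in CAV1−/− MCs (Col3a1 −1.01, Dcn −0.94), with averages of −1.34 for Eln and −0.97 for Col3a1 and interactions of 2.92 for Eln and 0.72 for Tnc. With 2 to 7 reads in every CAV1−/− culture Eln could not fall there, so its interaction only restates its WT value.

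The genes whose levels over the 8 cultures were most like a member were ranked by Pearson's r of log2(value + 1) among 10797 genes with a mean of at least 5. The 8 cultures come from 4 animals and share their library depth and cell make-up, and the values are a description. Mmp12 was closest to Ccr1 (r = 0.996), Srgn (0.995) and Pf4 (0.995), which are typical of myeloid cells and platelets. Mmp9 was closest to Snx18 (0.992), Il1a (0.992) and March7 (0.982), and Mmp13 to Ipo5 (0.980), Slfn2 (0.977) and Sh3bgrl (0.973). For Mmp2 they were Atxn7l3b (0.988), Tmem57 (0.985) and Limd2 (0.985), for Mmp3 Rpl7 (0.985), Phyh (0.971) and Pde4b (0.966), and for Mmp11 Aatf (0.995), Bbc3 (0.987) and Dact3 (0.986). For Mmp14 they were Dennd6a (0.970), E2f8 (0.958) and Wdhd1 (0.958), for Mmp19 Nsf (0.932), Sae1 (0.907) and Gins1 (0.904), and for Mmp23 Rpl10a (0.978), Faf2 (0.963) and Mpdu1 (0.960). Mmp10, with a mean under 5, was not ranked.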

How the data were processed

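Polyadenylated RNA of 8 mouse MC cultures was sequenced as single reads. After trimming with cutadapt, the authors used RSEM on GRCm38 transcripts, which shares reads between similar genes by estimate, and deposited a signal, the TMM-normalized CPM of edgeR. In it 100% of values are whole multiples of 1 read (tolerance 0.01 reads). Group means of log2(value + 1) of all 8 libraries were compared by limma 3.58.1 (R 4.3.3) with eBayes and an intensity trend, without a block, and adjusted by the Benjamini-Hochberg method over 13665 genes (22 removed). Alternatives were edgeR 4.0.16 and DESeq2 1.42.0 on recovered reads, other pseudocounts, filters, scalings and blocks, and left-out cultures. The fits were tested on simulated data. Static and stretched cultures of an animal, paired by the labels, deviated together (r = 0.701 in WT and 0.850 in CAV1−/− MCs). The study states more samples per condition than the 2 cultures per group analysed here. P-values measure the spread between cultures of 2 animals per genotype. All members are named, and from each list the 2 genes with the largest log2 fold change per comparison. Il1b, Tnf, Osm, Furin and Itgav were also named after their values were seen. Members and lists were chosen with earlier results of these data known.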

Additional observations from a re-analysis of the deposited data

How the results depend on the processing

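By limma 0 of the 10 members were called in any comparison under other pseudocounts (0.1 or 5), no filter, a filter on the mean (at least 5, which removes Mmp10), median-of-ratios or quantile scaling, the animal as a random effect, or without any 1 culture, and edgeR called 0 as well. Without stretch, DESeq2 called 2 members (Mmp9 and Mmp13), and with stretch it called 2 (the same pair). The genotypes share a replicate number and no animal (correlation of the deviations r = 0.521 static and 0.480 stretched). With that number as a replicate block, limma called 2 members without stretch (Mmp12, adjusted p = 0.0391, and Mmp13, 0.00848) and 1 with stretch (Mmp13, 0.0215). Of the other listed MMP genes and substrates it called Mmp8 (0.0373) and Eln (0.0398) without stretch. Its calls over all genes went from 10 to 246 and from 8 to 110, against 309 and 237 by DESeq2 and 2 and 6 by edgeR. With the animal as the block, 0 members were called for stretching in WT MCs, CAV1−/− MCs or the average, while calls over all genes for the average went from 0 to 201.

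Without animal 1, log2 fold changes for stretching in CAV1−/− MCs turned sign for Mmp10 (−0.27), Mmp12 (0.19) and Mmp19 (0.14), those between genotypes for Mmp11 (0.13 static and 0.50 stretched) and the interactions of Mmp9 (0.29) and Mmp19 (0.095). DESeq2 turned the stretch value of Mmp14 in WT MCs to 0.0050. Leaving out 1 culture at a time, where the remaining culture of a group is assumed to vary like the other groups, turned the sign of some log2 fold changes that had passed no test. For stretching in WT MCs these were, with the range over left-out cultures, Mmp2 (−0.039 to 0.77), Mmp3 (−0.13 to 0.86), Mmp10 (−0.027 to 1.35), Mmp11 (−1.18 to 0.38), Mmp12 (−0.42 to 1.23), Mmp13 (−0.11 to 0.62), Mmp14 (−0.43 to 0.33), Mmp19 (−0.43 to 0.52) and Mmp23 (−0.15 to 0.19). For stretching in CAV1−/− MCs they were Mmp2 (−0.48 to 1.07), Mmp3 (−2.69 to 0.030), Mmp9 (−0.72 to 1.62), Mmp10 (−0.50 to 0.74), Mmp11 (−0.92 to 0.65), Mmp12 (−1.93 to 1.38), Mmp13 (−1.24 to 0.049), Mmp14 (−0.12 to 0.31) and Mmp23 (−0.32 to 0.0071). Between genotypes they were Mmp2 (−0.45 to 1.09) and Mmp11 (−1.25 to 0.13) without stretch, and Mmp2 (−0.45 to 0.95), Mmp3 (−0.97 to 1.74), Mmp10 (−0.26 to 1.12), Mmp11 (−1.07 to 0.50), Mmp14 (−0.61 to 0.15), Mmp19 (−0.24 to 0.71) and Mmp23 (−0.13 to 0.19) with stretch. For the interaction they were Mmp2 (−0.84 to 0.70), Mmp9 (−1.66 to 0.68), Mmp10 (−1.23 to 0.15), Mmp11 (−0.51 to 1.06), Mmp12 (−2.34 to 0.97) and Mmp14 (−0.23 to 0.52). The signs of Mmp9, Mmp12 and Mmp13 between genotypes turned under none of these settings. Leaving out 1 culture leaves the other culture of its animal without a partner. The stretch values from left-out cultures therefore also hold the difference between animals. Within animals, Mmp2 was higher and Mmp11 lower on stretch in all 4. Beyond this, the cause of the sign changes was not tested.

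Each genotype is 2 animals, so the spread between animals rests on 1 difference per genotype. Mmp10 and, in WT MCs, Mmp9 rest on few reads, and their values are limited by depth.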
